A study of Mus musculus with 10 samples.

Results

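The genes described here mark the B, T and natural killer (NK) lineages, from the first steps of lymphoid priming to mature cells. They are 32 named genes: 8 early priming genes and 24 genes of mature B, T and NK cells. Of the 32 genes, 31 had a probe set with that gene as its sole symbol, among 19938 genes with such a probe set in the table, and each gene was read from the one with the highest mean over all arrays. Lck, a kinase of T cell receptor signalling, had no listed probe set.

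RNA of haematopoietic stem cells (HSCs) from the bone marrow of mice aged 8 weeks was hybridised to 10 arrays (Affymetrix Mouse Gene 1.0 ST), 5 per group, with 10000 cells per aliquot. The transgenic group carried (tetO)7CMVSox17-IRES-NucEGFP together with the doxycycline-dependent activator rtTA*M2 at the ROSA26 locus, and the control group were littermates labelled wild type. Both groups drank doxycycline at 2 mg/ml for 5 days. The activator is expressed from a locus active in most cell types, so induction is not limited to HSCs by design. Cells were double-sorted as CD150+ CD48- Lineage- Sca1+ cKit+. The labels do not list the antibodies of the lineage gate, which can include proteins of the lymphoid genes described here. The labels call the aliquots independent without tying them to animals, and p-values here cover only sample-to-sample spread, which may be technical.

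Lymphoid cells arise from HSCs through multipotent progenitors that switch on the interleukin-7 receptor, terminal transferase and the RAG recombinase. B cell precursors then display a surrogate light chain made of VpreB and lambda5, T cells acquire the CD3 complex and co-receptors, and NK cells, like cytotoxic T cells, carry cytotoxic granules. Adult HSCs give rise to these lineages but are not themselves lymphoid.

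As a check of the labels, the Sox17 probe set read 4.25 to 4.51 log2 units in the transgenic group and 4.02 to 4.30 in the controls, and the groups overlapped. Directions below therefore rest on the labels. Of 9 HSC marker genes 8 had a probe set, Procr, Slamf1, Hlf and Mecom among them, and all 8 read above the level described next. The arrays form 2 sets that cut across the groups, defined from the values themselves as described with the processing. Set A holds transgenic arrays 1, 2 and 3 with wild-type arrays 1 and 2, and set B holds the rest. Transgenic array 4 alone read as male (Xist 4.32, against 10.80 to 11.40 on the other transgenic arrays).

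The table has no detection calls. As a yardstick, 1210 probe sets of olfactory and vomeronasal receptors, genes not known in blood cells, were taken, and the 95th percentile of their means was 5.30 log2 units. Probe sets differ in affinity, so this separates no expressed gene from a silent one, and values of different genes are not ranked. The yardstick lay below the median of all probe sets on every array (5.45 to 5.56), so most values on each array exceeded it. In 20 of the 31 measured genes both group means were at or under the yardstick, 5 of the 8 early priming genes among them. The other 11 read above it in at least 1 group: Ccr7, Lax1, Cd27, Cd79b, Igll1, Vpreb1, Vpreb2, Ighm, Cd3e, Thy1 and Nkg7.

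**Figure D1:**
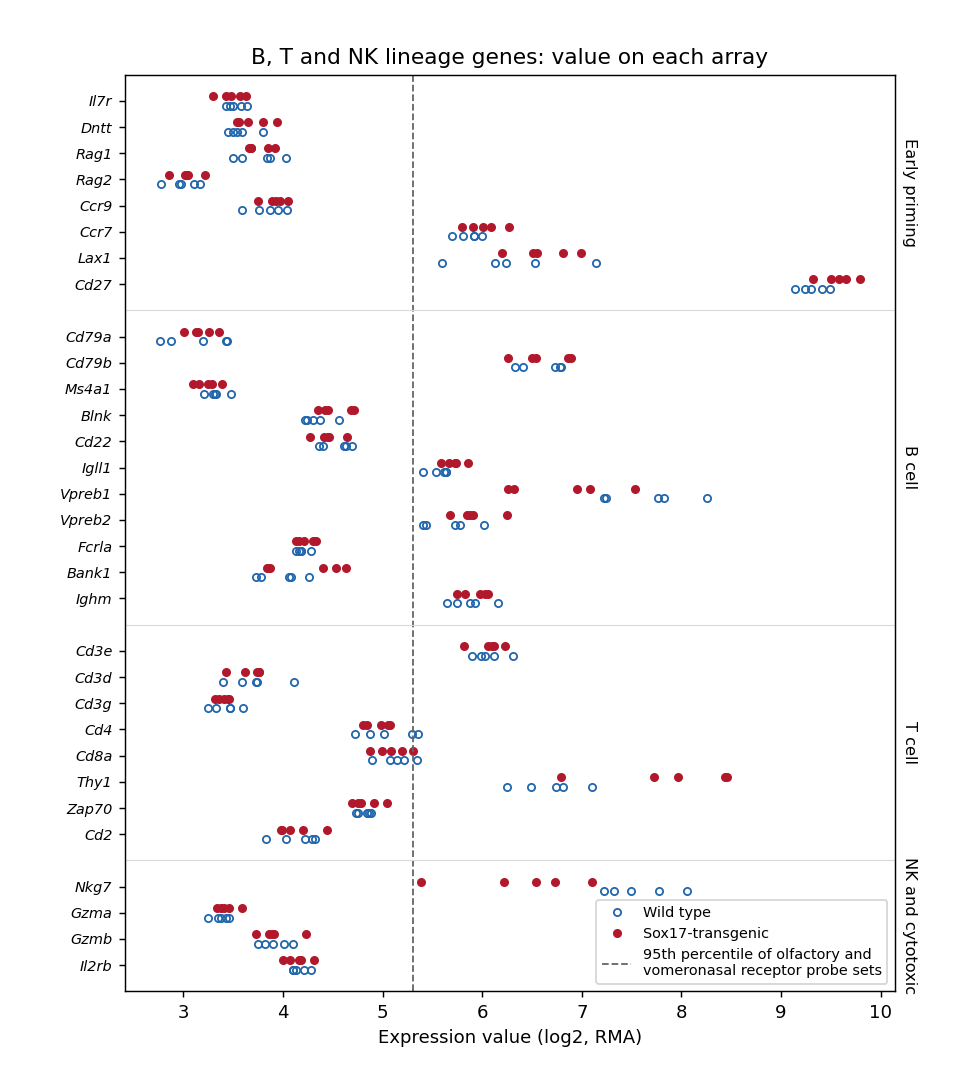
Each point is one array, with the log2 RMA value on the horizontal axis and one row per gene, filled red for Sox17-transgenic and open blue for wild type. The dashed line at 5.30 is the 95th percentile of olfactory and vomeronasal receptor probe sets, and only in Nkg7 do the 5 transgenic arrays (5.39 to 7.10) lie apart from the 5 wild-type arrays (7.22 to 8.06).

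None of the lineage genes passed the test. Of the 31 measured genes, 0 passed an adjusted p of 0.05 (limma, Benjamini-Hochberg over 23410 probe sets), while 0.141% of all probe sets tested did (0.12% higher and 0.0214% lower). An unadjusted p under 0.05 was reached by 4 genes, Thy1 and Cd27 higher and Nkg7 and Vpreb1 lower on the transgenic arrays, against 6.59% of all probe sets. The median log2 change was 0.10 over the early priming genes, 0.04 over the 11 B cell genes, -0.01 over the 8 measured T cell genes and -0.01 over the 4 NK and cytotoxic genes, beside -0.01 over all tested probe sets. Positive changes numbered 18 of 31, where 46.3% of all probe sets had one. Leaving out transgenic array 2, the lowest of its group in Thy1, brought 1 gene, Thy1, past the threshold. No other left-out array did so for any of the genes.

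**Figure D2:**
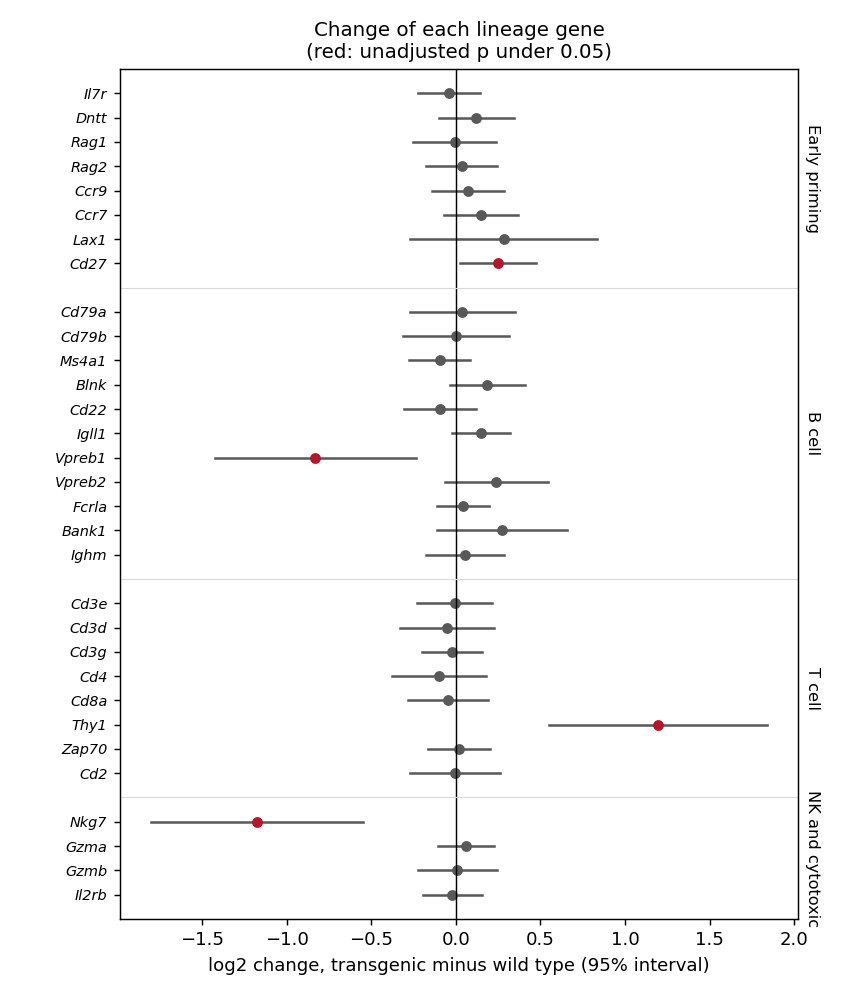
Points are log2 changes, transgenic minus wild type, and lines are 95% intervals from the limma fit, with one row per gene and red for an unadjusted p under 0.05. Thy1 at 1.20 and Nkg7 at -1.17 lie farthest from 0, and the changes of the 27 genes drawn in grey run from -0.10 to 0.28.

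The surrogate light chain genes are shown by sequence first, because the close copies Vpreb1 and Vpreb2 had changes of opposite sign, neither past the threshold. Both lie on chromosome 16, Igll1 is the next protein-coding gene to Vpreb1 in RefSeq, and Nkg7 is shown for the contrast it gives on the arrays. The sequences are RefSeq promoter windows of GRCm38.p6, from 250 bases before to 50 after the annotated start, 5′ to 3′ on the gene's strand. They cover chr16:16869206-16869505 (minus strand) for Vpreb1, chr16:17980315-17980614 (plus) for Vpreb2, chr16:16863936-16864235 (minus) for Igll1 and chr7:43436888-43437187 (plus) for Nkg7. In Vpreb1 and Vpreb2 capitals mark the shared stretch, which is where the windows overlap when aligned without gaps. Their lower-case bases have no counterpart in the other window and were not compared. In Igll1 and Nkg7 capitals mark matches to the motifs named below.
Vpreb1: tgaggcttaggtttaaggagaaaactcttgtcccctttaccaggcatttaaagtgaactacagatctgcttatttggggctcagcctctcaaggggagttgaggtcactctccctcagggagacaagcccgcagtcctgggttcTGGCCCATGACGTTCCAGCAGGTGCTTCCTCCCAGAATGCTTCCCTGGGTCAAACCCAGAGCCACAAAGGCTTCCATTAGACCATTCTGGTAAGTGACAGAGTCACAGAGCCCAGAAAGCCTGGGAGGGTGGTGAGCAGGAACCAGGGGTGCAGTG
Vpreb2: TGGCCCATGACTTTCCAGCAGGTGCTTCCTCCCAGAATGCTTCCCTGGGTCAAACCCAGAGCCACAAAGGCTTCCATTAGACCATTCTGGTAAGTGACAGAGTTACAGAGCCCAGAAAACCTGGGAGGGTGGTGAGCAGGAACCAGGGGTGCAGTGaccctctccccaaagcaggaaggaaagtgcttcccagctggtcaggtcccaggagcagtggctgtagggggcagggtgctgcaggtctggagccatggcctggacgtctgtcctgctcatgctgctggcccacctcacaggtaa
Igll1: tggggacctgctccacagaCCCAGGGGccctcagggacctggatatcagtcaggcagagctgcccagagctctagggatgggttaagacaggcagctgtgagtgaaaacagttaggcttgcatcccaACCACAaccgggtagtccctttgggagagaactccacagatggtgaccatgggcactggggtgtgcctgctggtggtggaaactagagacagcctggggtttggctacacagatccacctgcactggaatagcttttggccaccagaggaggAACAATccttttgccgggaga
Nkg7: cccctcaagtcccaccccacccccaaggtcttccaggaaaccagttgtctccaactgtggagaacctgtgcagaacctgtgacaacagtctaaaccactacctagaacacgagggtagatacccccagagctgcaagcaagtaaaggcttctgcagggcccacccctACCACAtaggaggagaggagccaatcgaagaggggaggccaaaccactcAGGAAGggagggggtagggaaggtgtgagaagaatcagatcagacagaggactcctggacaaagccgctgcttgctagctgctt

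Over 156 shared bases the Vpreb1 and Vpreb2 windows were identical at 153 (98.1%). Counted from 1 at the 5′ end of the Vpreb1 window, the differences are G156T, C248T and G263A, Vpreb1 base first. The shared stretch is bases 145 to 300 of the Vpreb1 window and 1 to 156 of the Vpreb2 window. The annotated start of Vpreb1 thus lies inside it, and that of Vpreb2 lies downstream of it. Motifs were searched on both strands as AACAAT for SOX factors, CCCNNGGG for EBF1, TGTGGT for RUNX factors and AGGAAG for ETS factors, and no matches overlapped in the windows printed. Of all 32851 windows, 10.7% held AACAAT, 13.7% CCCNNGGG, 16.8% TGTGGT and 35.4% AGGAAG. Igll1 holds 1 match each to the SOX (bases 30 to 35 after the start), EBF1 and RUNX motifs. Nkg7 holds 1 RUNX and 1 ETS match and no SOX match. Of 24 lineage genes with a window, 5 held the SOX motif (Cd22, Igll1, Fcrla, Cd8a and Zap70), 6 the EBF1, 9 the RUNX and 14 the ETS motif in at least 1 window. Counted by window, as in the shares above, 5 of their 28 windows held the SOX, 6 the EBF1, 10 the RUNX and 17 the ETS motif. The genes with no window were Ccr7, Cd79b, Ms4a1, Ighm, Cd4, Thy1, Il2rb and Cd2.

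Among the early priming genes, those of V(D)J recombination and interleukin-7 signalling stayed under the yardstick in both groups. Il7r encodes the interleukin-7 receptor alpha chain. It averaged 3.48 ± 0.13 in the transgenic group and 3.52 ± 0.09 in the controls (SD, n = 5 each). Dntt, terminal deoxynucleotidyl transferase, which adds bases at V(D)J joints, averaged 3.70 ± 0.17 and 3.58 ± 0.14. Rag1 and Rag2, neighbouring genes for both parts of the recombinase, differed by -0.01 (95% interval -0.25 to 0.24) and 0.03 (-0.17 to 0.24). Ccr9, a chemokine receptor of thymus-seeding progenitors, differed by 0.07 (-0.14 to 0.29). Over these 5 genes the interval bounds lay between -0.25 and 0.34.

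Cd27, a TNF receptor family member found on multipotent progenitors and lymphocytes, read 9.50, 9.65, 9.32, 9.58 and 9.79 on transgenic arrays 1 to 5. It read 9.49, 9.24, 9.41, 9.14 and 9.30 on wild-type arrays 1 to 5. All transgenic arrays but the third lay above every wild-type array, so the groups overlapped. The log2 change was 0.25 (SE 0.10, 95% interval 0.03 to 0.48) and did not pass (limma, adjusted p = 0.684). Within the sets it was 0.13 (A) and 0.40 (B).

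Lax1, an adaptor that dampens antigen receptor signalling, read 6.20, 6.55, 6.51, 6.99 and 6.81 on the transgenic arrays and 6.13, 5.60, 7.15, 6.53 and 6.23 on the wild-type arrays. The wild-type arrays alone spanned the whole transgenic range. Its level moved with the array set, averaging 6.20 in set A and 6.74 in set B. Ccr7, the chemokine receptor that guides lymphocytes to lymph nodes, read 6.27, 6.01, 6.09, 5.91 and 5.80 on the transgenic and 5.92, 6.00, 5.70, 5.91 and 5.81 on the wild-type arrays. The changes were 0.28 (SE 0.25) for Lax1 and 0.15 (SE 0.10) for Ccr7, with adjusted p of 0.943 and 0.905 (limma).

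Among the B cell genes, Vpreb1 averaged lower on the transgenic arrays without passing, while its copy and its partner had positive changes. Vpreb1, the V-like part of the surrogate light chain, read 6.26, 7.09, 6.32, 7.54 and 6.95 on transgenic arrays 1 to 5. It read 7.22, 7.77, 7.82, 7.24 and 8.25 on the wild-type arrays. Transgenic array 4 lay above wild-type arrays 1 and 4, and every other transgenic array lay below all wild-type arrays. The log2 change was -0.83 (SE 0.27, 95% interval -1.42 to -0.24; limma, adjusted p = 0.466), and within the sets it was -0.94 (A) and -0.53 (B). Without transgenic array 4 the change was -1.01 (adjusted p = 0.310).

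Vpreb2, whose window shares the capital stretch shown above, read 6.25, 5.91, 5.68, 5.85 and 5.87 on the transgenic arrays and 5.72, 5.78, 5.40, 6.02 and 5.43 on the wild-type arrays. The groups overlapped and the change was 0.24 (SE 0.14; limma, adjusted p = 0.869). Close copies can share probes, and which probes read which copy could not be told. The alignment above covers promoter windows and not whole transcripts. The lambda5 gene Igll1, the constant-like part, read 5.73, 5.85, 5.72, 5.58 and 5.67 on the transgenic and 5.61, 5.64, 5.63, 5.40 and 5.53 on the wild-type arrays. Its change was 0.15 (SE 0.08; limma, adjusted p = 0.827). The intervals of Vpreb2 (-0.06 to 0.54) and Igll1 (-0.02 to 0.32) thus lay above that of Vpreb1, though the differences between these genes were not tested.

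The B cell receptor genes did not pass the threshold either. Cd79b, a signalling chain of the B cell receptor, read 6.86, 6.50, 6.54, 6.89 and 6.26 on the transgenic and 6.33, 6.79, 6.73, 6.78 and 6.41 on the wild-type arrays, a change of 0.00 (SE 0.14). Its partner Cd79a averaged 3.18 ± 0.13 and 3.14 ± 0.31 (SD, n = 5 each), under the yardstick. Ighm, the immunoglobulin mu heavy chain, had 3 probe sets, and the brightest read 6.02, 5.97, 6.05, 5.83 and 5.75 against 5.93, 6.16, 5.87, 5.65 and 5.75. The other 2 read under the yardstick, and the 3 changes were 0.05, 0.02 and 0.29, with adjusted p of 0.848 to 0.991 (limma). The remaining B cell genes all read under the yardstick. Bank1, a scaffold of B cell receptor signalling, differed by 0.27 (-0.11 to 0.66) and Blnk, the adaptor downstream of Syk, by 0.19 (-0.03 to 0.41). The surface genes Cd22 and Ms4a1 (CD20) differed by -0.09 and -0.10, and the Fc receptor-like gene Fcrla by 0.04.

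Among the T cell genes Thy1 alone differed by more than 0.10. Thy1 encodes the Thy-1 surface glycoprotein of T cells, which mouse HSCs also carry at a low level. It read 7.72, 6.79, 8.46, 8.44 and 7.97 on transgenic arrays 1 to 5 and 6.25, 6.82, 6.49, 7.10 and 6.74 on wild-type arrays 1 to 5. Transgenic array 2 lay within the wild-type range and the other 4 transgenic arrays lay above it. The mean was 7.88 ± 0.68 against 6.68 ± 0.32 (SD, n = 5 each), a change of 1.20 (SE 0.29, 95% interval 0.55 to 1.84) or 2.29-fold. This missed the threshold (limma, adjusted p = 0.224). Within set A the change was 1.12, and within set B 1.42. Without transgenic array 2 the change was 1.47 and passed (limma, adjusted p = 0.0189). Leaving out any other array gave adjusted p of 0.298 to 0.512. Transgenic array 2 held the lowest transgenic value, so leaving it out could only raise the change, and that pass adds no support.

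Transgenic array 2 was also lowest of its group in Flt3, a receptor of multipotent and early lymphoid progenitors, and in Cd48, whose protein the gate excludes. Flt3 read 7.57 there and 8.57 to 9.24 on the other transgenic arrays, against 6.14 to 7.48 in the controls. Cd48 read 5.54 there and 6.14 to 7.00 on the other transgenic arrays, against 4.47 to 5.76. The mean over Cd48, Cd34 and Flt3 was 7.53 to 8.41 in the transgenic group and 6.64 to 7.37 in the controls. The endothelial marker list also differed. In 4 of its 6 measured genes the groups did not overlap, higher on the transgenic arrays, as in 0.876% of all probe sets. Egfl7 of this list rose (log2 change 1.21, limma adjusted p = 0.0260). The list mean was 6.70 to 7.20 in the transgenic group and 5.99 to 6.35 in the controls. It was lowest of the transgenic group on array 2, close to array 5 (6.76). Of the 6 genes only Cldn5 was lowest there, while Egfl7 was lowest on array 1, Pecam1 on array 5 and Cdh5 on array 4. The part of either list in the Thy1 difference was not tested. In sorted cells a changed share of a cell type and a changed amount of RNA per cell cannot be told apart.

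The CD3 complex and the T cell co-receptors gave no such difference. Cd3e, the epsilon chain, read 6.23, 6.06, 5.82, 6.09 and 6.12 on the transgenic and 6.03, 6.31, 5.90, 5.99 and 6.12 on the wild-type arrays, a change of -0.01 (-0.23 to 0.22). Its neighbours Cd3d and Cd3g read under the yardstick and differed by -0.05 and -0.02. The co-receptors Cd4 and Cd8a differed by -0.10 and -0.05. Zap70, the kinase recruited to the activated T cell receptor, differed by 0.02, and the adhesion receptor Cd2 by -0.01. Over the 7 measured T cell genes other than Thy1 the interval bounds lay between -0.38 and 0.26.

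Nkg7 was the only lineage gene whose groups did not overlap, as in 1.47% of all probe sets (0.594% lower and 0.876% higher on the transgenic arrays). Nkg7 encodes a granule membrane protein of NK cells and cytotoxic T cells. It read 6.22, 6.54, 5.39, 6.74 and 7.10 on transgenic arrays 1 to 5 and 8.06, 7.77, 7.22, 7.49 and 7.32 on wild-type arrays 1 to 5. The lowest wild-type value lay just above the highest transgenic one. The mean was 6.40 ± 0.65 against 7.57 ± 0.34 (SD, n = 5 each), a log2 change of -1.17 (SE 0.28, 95% interval -1.80 to -0.55), and it did not pass (limma, adjusted p = 0.218). Within set A the change was -1.87, against -0.42 within set B. Wild-type arrays 1 and 2 and transgenic array 3, all of set A, held the extremes, and without transgenic array 3 the change was -0.92 (adjusted p = 0.296).

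The granule proteases did not move with Nkg7. Gzma, granzyme A, averaged 3.43 ± 0.10 and 3.37 ± 0.08, and Gzmb, granzyme B, 3.92 ± 0.19 and 3.92 ± 0.14 (SD, n = 5 each), all under the yardstick. Il2rb, the beta chain shared by the interleukin-2 and interleukin-15 receptors, averaged 4.14 ± 0.12 and 4.17 ± 0.08. The mean over 7 measured megakaryocyte and platelet genes was lower on the transgenic arrays as well, at 6.43 to 6.59 against 6.78 to 7.38. Wild-type arrays 1 and 2 were highest in it and in Nkg7. Transgenic array 5, though, was lowest in this mean (6.43) and highest of its group in Nkg7 (7.10). Of these 7 genes Pf4 fell (log2 change -2.53; limma, adjusted p = 0.0112), while 2, Vwf and Itgb3, had positive changes. The mean over 8 measured erythroid genes ran lower too, at 6.06 to 6.34 against 6.30 to 6.66, with overlap. Of these 8 genes 6 had negative changes, where 46.3% of all probe sets had a positive one. An unadjusted p under 0.05 was reached by 4, all lower, against 6.59% of all probe sets, and 0 passed (limma). The part of either list in the Nkg7 difference was not tested.

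**Figure D3:**
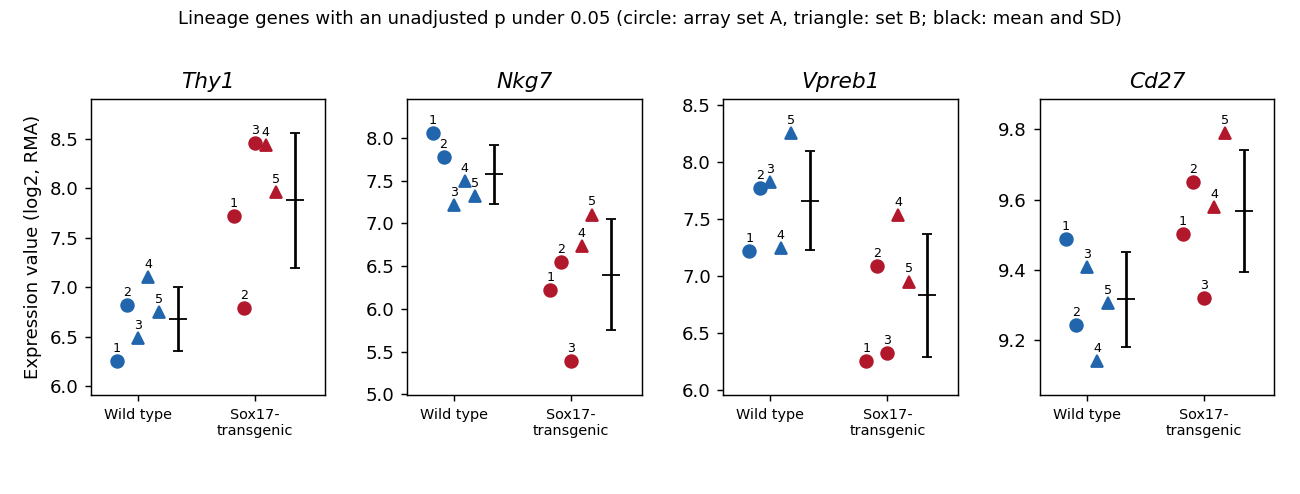
Each panel plots the log2 RMA value of one gene on every array, wild type in blue and Sox17-transgenic in red, with the replicate number beside each point, circles for array set A and triangles for set B, and the mean with SD in black. Vertical axes differ between panels and do not start at 0. Transgenic array 2 sits with the wild-type arrays in Thy1 (6.79), and the distance between the groups in Nkg7 is widest among the circles (-1.87 in set A).

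Other genes of lymphoid development were read from 6 further lists, with 102 of 109 genes measured. Past the threshold were 1 higher and 0 lower (limma), where 0.141% of all probe sets passed, and the median change was 0.01. The one that rose was Satb1, a chromatin organiser of lymphoid progenitors. It read 7.54, 7.37, 7.50, 7.75 and 7.48 on the transgenic and 6.65, 6.61, 6.72, 6.99 and 6.61 on the wild-type arrays. All transgenic arrays lay above all wild-type arrays, by 0.81 in the mean (SE 0.10; adjusted p = 0.0109).

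Of 24 measured lymphoid transcription factors, 1 passed and 5 had an unadjusted p under 0.05, 4 of them higher, against 6.59% of all probe sets. Id2, a repressor of E proteins needed for NK and innate lymphoid cells, differed by 0.74 (SE 0.14; limma, adjusted p = 0.0986), with groups that did not overlap. With the array set as a block it passed (adjusted p = 0.0154), in a fit whose residual spread the definition of the sets lowers. Foxo1, which acts upstream of Il7r and the Rag genes, differed by 0.46 (SE 0.15, adjusted p = 0.470).

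Among 9 measured early lymphoid surface genes 0 passed (limma). Flt3 differed by 1.53 (SE 0.32, adjusted p = 0.132), Notch1 by 0.23 (SE 0.10) and the cannabinoid receptor Cnr2 by 0.18 (SE 0.14). Flt3 passed without transgenic array 2 (limma, adjusted p = 0.0274), the lowest transgenic array in this gene, whose removal could only raise the change. Of 11 measured V(D)J joining factors 0 passed (limma) and 3 had an unadjusted p under 0.05, against 6.59% of all probe sets. These were Xrcc5 (0.37) and Xrcc4 (0.30), which act in end joining in all cells, and the ligase Lig4 (-0.27).

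Signalling genes of the antigen receptors gave 0 calls in both lists (limma). Of 16 measured B cell receptor and surface genes, 2 had an unadjusted p under 0.05, against 6.59% of all probe sets. Plcg2, the phospholipase downstream of Btk, read 8.71 ± 0.33 against 7.84 ± 0.27 (SD, n = 5 each), a change of 0.87 (limma, adjusted p = 0.112). Adjusted p was 0.0374 without transgenic array 2, the lowest transgenic array in this gene, whose removal could only raise the change. The adaptor Pik3ap1 differed by 0.39 and the kinase subunit Pik3cd by 0.24. Of 21 measured T cell receptor and surface genes 0 had an unadjusted p under 0.05. Those with the smallest p were the adaptor Lcp2 (0.25), the kinase Prkcq (0.35) and the thymocyte factor Themis (-0.16).

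Among 21 measured NK receptor and cytotoxic genes 0 passed (limma), with a median change of 0.01. The direction differed from that of Nkg7 in the 2 with an unadjusted p under 0.05, a level reached by 6.59% of all probe sets. Il18rap, a chain of the interleukin-18 receptor, differed by 0.73 (SE 0.25, adjusted p = 0.492), and Klrb1c, the NK1.1 antigen, by 0.79 (SE 0.29, adjusted p = 0.557). Both group means of Klrb1c lay under the yardstick (4.57 transgenic and 3.78 wild type). It read 5.45 and 5.15 on transgenic arrays 4 and 5, both of set B, and 3.67 to 4.31 on the other transgenic arrays, against 3.62 to 4.06 on the wild-type arrays. The mean over 14 granulocyte and monocyte markers was highest on the same arrays, at 5.65 and 6.24. It was 5.24 to 5.37 on transgenic arrays 1 to 3 and 5.03 to 5.33 in the controls. Of that list 12 of 14 changes were positive, where 46.3% of all probe sets had one, and 0 passed (limma, 1 with an unadjusted p under 0.05). The part of that list in the Klrb1c difference was not tested. Ncr1, the NKp46 receptor that defines NK cells, read under the yardstick in both groups (3.70 and 3.89, change -0.19). The mean over the list was 4.91 to 5.14 on the transgenic and 4.92 to 4.96 on the wild-type arrays.

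**Figure D4:**
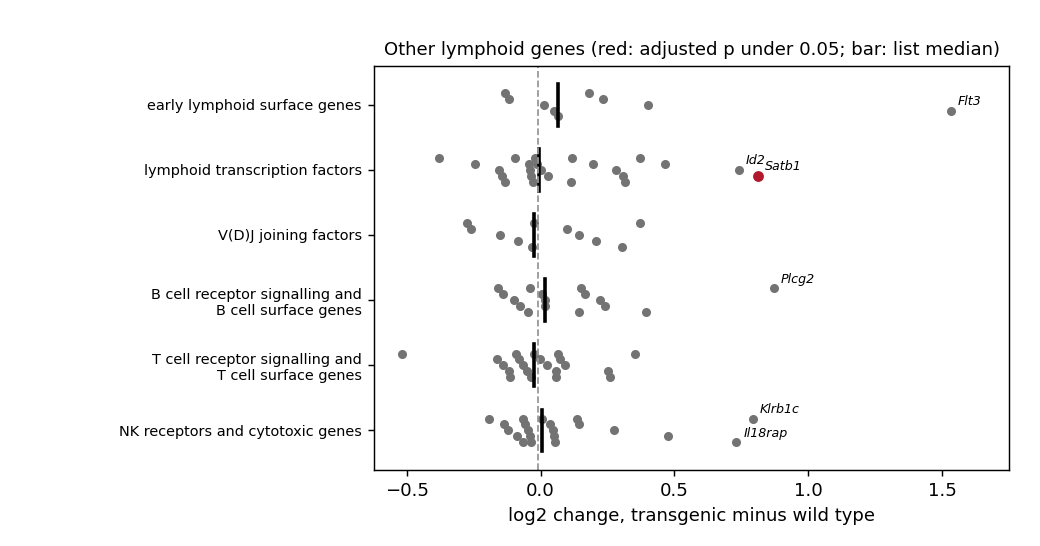
Points are log2 changes, transgenic minus wild type, of the 102 measured genes in 6 lists of other lymphoid genes, red for an adjusted p under 0.05, with a black bar at each list's median and a dashed line at the median of all probe sets (-0.01). Satb1 (0.81) is the red point, and Flt3 (1.53), Plcg2, Klrb1c, Id2 and Il18rap lie farthest to the right without passing.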

How the data were processed

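The authors deposited 1 table of log2 values for 35556 probe sets on the 10 arrays, made by robust multi-array average (RMA), per the submitters' processing notes, which also name affy and limma. Neither versions nor settings are stated there. The values were used as they stand. Genes were named from the platform annotation: 21789 probe sets had 1 symbol, 1621 several and 12146 none. The 23410 named ones entered a two-sided limma fit (lmFit and eBayes, limma 3.58.1, R 4.3.3) of the transgenic against the control group, adjusted by Benjamini-Hochberg over all of them, with 0.05 as the threshold. The fit was tested on simulated data with probe sets drawn independently, so the array sets were not part of that test. Precision is limited by having 5 arrays per group.

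Array sets are the sign of the first principal component of deviations from the group means (36.1% of that variance). Lists were only counted, with no set test. The genes and lists were chosen with earlier results of these data known. Values by array are given for genes with an unadjusted p under 0.05 or a group mean above the yardstick. In related lists the called genes and the 3 with the smallest p are named. Alternatives were blocks, within-set fits, scaling, filters, array weights, a floor, thresholds and leaving out arrays.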

Additional observations from a re-analysis of the deposited data

Results flagged for a closer look

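Single arrays stood apart from the other 4 of their group in 4 of 98 groups of values examined by Dixon's gap test, which chance gives in about 1 of 20 groups, and in none of the B, T and NK lineage genes. Flt3 read 6.14 on wild-type array 4, against 7.10 to 7.48 on the other wild-type arrays, and without that array its change was 1.30. Prkcq read 7.49 on the same array, against 7.98 to 8.11. Xrcc5 read 8.04 on transgenic array 1, against 8.45 to 8.57 on the other transgenic arrays. Themis read 3.52 on wild-type array 2, against 3.40 to 3.43.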

How the results depend on the processing

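The count of lineage genes past the threshold stayed at 0 under 23 of 24 alternatives and was 1 without transgenic array 2 (0 to 1 over the left-out arrays). The related lists, run under 17 alternatives, gave 2 calls with the array set as a block. In that fit 0.389% of all probe sets passed, against 0.141% in the main fit. Over the left-out arrays the related lists gave 1 to 4 calls, 4 without transgenic array 2. Counts over the left-out arrays, of lineage and related genes alike, are given without the share of all probe sets and so cannot be read as particular to these genes. Thy1, Nkg7, Vpreb1 and Cd27 kept their direction under all 24 alternatives. Adjusted p (limma) ranged from 0.0189 to 0.702 for Thy1, 0.128 to 0.812 for Nkg7, 0.310 to 0.969 for Vpreb1 and 0.499 to 0.964 for Cd27. Satb1 kept a change of 0.84 within each array set, as large as over all arrays (0.81), but with 5 arrays a set it did not pass there (adjusted p of 0.123 in A and 0.283 in B), nor at a threshold of 0.01. Id2 passed at a threshold of 0.10. The medians of the lineage groups moved by less than their spread between arrays under the 19 alternatives run for them. With the replicate number as a block 0 lineage genes and 1 related gene passed, and this block changed no call among the genes named. The numbers did not pair the arrays: same-numbered deviations correlated at -0.14 to 0.35. With the floor Themis lay wholly at it and gave no value. Few arrays and signals under the yardstick limit what could be seen for 20 of the 31 measured genes, where a small change or a low level was not resolvable. Blocks and within-set fits rest on sets defined from the same values.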
